A study of Drosophila melanogaster with 16 samples.

Results

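DmD8 cells, a Drosophila line derived from larval imaginal discs, were compared on arrays after activation of Notch and without it. The comparison comprised 5 arrays of the 16 deposited columns, the replicates 1 to 5 of activated DmD8 RNA, chosen by their titles and described across all genes. Each was a 2-colour long-oligonucleotide array carrying 2 RNAs, which gave 1 log ratio per probe. Activated cells had been exposed to 2 mM EDTA in PBS for 30 minutes. By one set of labels the other RNA came from control cells that had received PBS alone. By another set, attached to the same values, it came from cells kept overnight in 300 µM DFK-167, an inhibitor of the gamma-secretase that cuts Notch, and then exposed to EDTA. It is therefore called the comparison RNA. Of 71019 pairs of values under these labels 24 were not identical, with a largest difference of 4.87e-08, and the arrays were counted once. Under the control labels a ratio would also hold what EDTA does apart from Notch, and under the inhibitor labels what the overnight drug does. All cells grew in medium with serum and insulin. The remaining 6 arrays set activated against control Kc cells, another Drosophila line. Ratios hold no levels, so the identity of the DmD8 cells could not be checked against marker genes, and in these bulk samples fewer expressing cells and less RNA per cell cannot be told apart.

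Notch is a receptor that is cut at the membrane when it is activated. Its intracellular part then enters the nucleus and acts with the DNA-binding protein Su(H) on target genes. In flies the best known targets lie in the Enhancer of split complex, E(spl), which encodes bHLH repressors and small Bearded-type proteins that modulate Notch signalling. EDTA removes the calcium that holds the extracellular and membrane-bound parts of Notch together, which lets the receptor be cut without ligand.

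The arrays gave values for 13353 to 15018 of 17258 probes (77.4% to 87.0%), with array medians between -0.128 and 0.01. Arrays 1 to 3 carried activated RNA in Cy5, and arrays 4 and 5 were dye swaps. Correlations between arrays, over 10043 features with a value on each of the 11 distinct arrays, were 0.48 to 0.60 within an orientation and -0.29 to 0.24 between orientations. Of the 50 features with the highest mean over arrays 1 to 3, 41 were positive over the swaps, and of the 50 lowest 34 were negative. Of the 50 highest over the swaps 25 were positive over arrays 1 to 3, and of the 50 lowest 44 were negative. The swaps were taken as already turned, so that a positive value stands for a higher level in activated cells on every array. No source states that direction. It is likely from the labelled dye order and from E(spl) genes, which Notch is known to switch on, so the sign of the E(spl) genes is not a result.

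Each value below is a mean log ratio that gives both dye orientations equal weight, over n = 5 arrays unless stated, with the standard error of the limma fit, whose spread is estimated from the DmD8 and Kc arrays together. A gene is said to have risen or fallen where its Benjamini-Hochberg adjusted p, over all 12913 tested features (8802 named genes and 4111 unnamed probes), was under 0.05. The labels speak of 3 biological replicates, so the dye swaps are treated as repeat arrays of that RNA and these p-values are too small. A gene held under every pairing if it also passed after the DmD8 swaps were averaged with replicates in each of the 6 possible ways. In these fits the Kc swaps were always averaged with Kc replicates in the order of their numbers. Other Kc pairings were not tried.

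In all 931 features differed (7.21%), 395 higher (3.06%) and 536 lower (4.15%) in activated cells. The higher ones comprised 327 named genes and the lower ones 452. Their median log ratios were 0.44 and -0.49, beside -0.04 over all tested features, and 26 higher and 43 lower features were over 1 in size. The higher share of the calls was 42.4%. It became 54.5% once each array was centred on its median, which moved the median of all features by 0.04. Under every pairing 230 of 10476 testable features passed (2.20%), 77 higher (0.735%) and 153 lower (1.46%). The count fell to 582, 560, 418 and 528 without array 1, 2, 4 or 5.

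**Figure D1:**
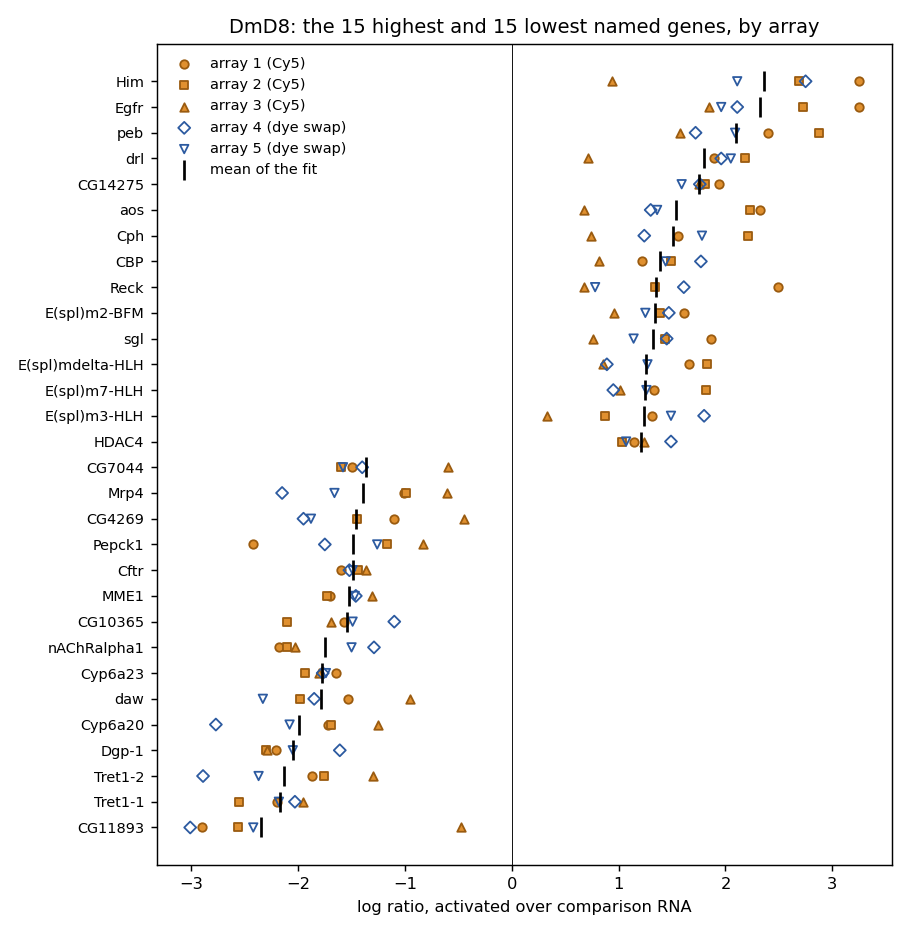
Log ratio (activated over comparison RNA, horizontal axis) of the 15 highest and 15 lowest named genes with one sign on 5 of 5 arrays. Filled orange symbols are arrays 1 to 3 (activated RNA in Cy5), open blue symbols the dye swaps 4 and 5, and the black bar is the mean of the fit; Him stands at 2.36 and CG11893 at -2.35, and in both array 3 lies nearest to 0.

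The highest named genes lay outside the E(spl) complex. Him, which keeps adult muscle progenitors undifferentiated, gave 3.25, 2.69, 0.94, 2.75 and 2.11 on arrays 1 to 5, with a mean of 2.36 ± 0.28 (adjusted p = 0.000933). Egfr, the epidermal growth factor receptor, gave 3.25, 2.73, 1.85, 2.11 and 1.96, with a mean of 2.32 ± 0.15 (adjusted p = 7.48e-06). Both were positive on all 5 arrays, with array 3 the lowest in each. The zinc finger factor peb gave 2.40, 2.88, 1.57, 1.72 and 2.09 (mean 2.10 ± 0.20, adjusted p = 0.000113). The Ryk-type receptor drl gave 1.89, 2.18, 0.71, 1.96 and 2.05 (mean 1.80 ± 0.19, adjusted p = 0.00023). In drl, 4 arrays lay close together and array 3 far below them. CG14275 was among the most even of the high genes, with 1.94, 1.81, 1.75, 1.76 and 1.59 on arrays 1 to 5 (mean 1.75 ± 0.17, adjusted p = 0.000178). HDAC4, a histone deacetylase, was also even, between 1.03 and 1.49 (mean 1.21 ± 0.09). The zinc finger gene Cph (1.51 ± 0.18), the calcium-binding protein gene CBP (1.39 ± 0.13), Reck (1.35 ± 0.21), whose mammalian counterpart inhibits matrix metalloproteases, and sgl, which encodes the UDP-glucose dehydrogenase of proteoglycan synthesis (1.32 ± 0.14), completed the high genes outside the pathways described next. Each gene of this paragraph passed without any 1 of the 5 arrays and held under every pairing.

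Of 4 tested E(spl) bHLH genes 3 rose, as did 3 of 4 tested genes of the Bearded type, of which all but Tom belong to the complex. All 6 held under every pairing. Over all features 3.06% rose, and 0.735% of testable features were higher under every pairing. E(spl)mdelta-HLH gave 1.66, 1.83, 0.85, 0.89 and 1.27 on arrays 1 to 5 (mean 1.26 ± 0.13, adjusted p = 0.00021). E(spl)m7-HLH gave 1.33, 1.82, 1.01, 0.95 and 1.26 (mean 1.25 ± 0.16, adjusted p = 0.000632). E(spl)m3-HLH gave 1.31, 0.87, 0.33, 1.80 and 1.49 (mean 1.24 ± 0.13, adjusted p = 0.000225). The means of these repressors lay within 1 standard error of each other, and E(spl)m3-HLH was the most uneven over the arrays. E(spl)mbeta-HLH gave 0.14, -0.26, -0.15, 0.27 and 0.06, around 0 on every array (mean 0.04 ± 0.26, adjusted p = 0.951). Among the Bearded type, E(spl)m2-BFM ran from 0.96 to 1.61 (mean 1.34 ± 0.19), E(spl)malpha-BFM from 0.54 to 1.41 (1.14 ± 0.19) and E(spl)m6-BFM from 0.66 to 1.88 (1.14 ± 0.17). Without array 4, E(spl)malpha-BFM did not pass. Tom, a Bearded-type gene outside the complex, had 4 values between -0.58 and 0.38 (0.04 ± 0.25, adjusted p = 0.945). A further 5 genes were not tested, since the filter asks for at least 3 values and both dye orientations in DmD8 and also in Kc. E(spl)m5-HLH (0.35 to 0.86 on 4 arrays) and E(spl)m4-BFM (0.58 to 1.06 on 4) met it in DmD8. They lacked Kc values with activated RNA in Cy5. Ocho (-0.46 to 0.99 on 4) had too few Kc values. Kaz-m1 (-0.33 and -0.06) and Brd (-0.33 on array 3) had too few DmD8 values.

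The rising E(spl) genes other than E(spl)mdelta-HLH formed the longest run of neighbours called in one direction. E(spl)malpha-BFM and E(spl)m2-BFM, then E(spl)m3-HLH, then E(spl)m6-BFM and last E(spl)m7-HLH followed each other on chromosome 3R with no other tested gene between them, in the order of the RefSeq gene table of the Release 6 assembly. Among 5758 pairs of neighbouring protein-coding genes with both tested, both rose in 21, both fell in 40 and the members moved in opposite directions in 16. No other run was longer than 3 genes. One of these was formed by GstD1, GstD2 and GstD3, glutathione transferases that all fell, and Tret1-1 and Tret1-2 were a falling pair. Paralogs of this kind may share probe signal.

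Of 15 Notch pathway components 2 rose (13.3%, against 3.06% of all features) and none fell. Delta, a Notch ligand, was positive on all arrays, between 0.31 and 0.78 (0.57 ± 0.12, adjusted p = 0.023). The ubiquitin ligase neur, which acts on the ligands, lay between 0.25 and 0.76 (0.54 ± 0.10, adjusted p = 0.00535). Under the pairings neur passed in 4 of 6, so it did not hold under every pairing. Delta had too few Kc values to be tested under any pairing, and did not pass without array 1, 2, 4 or 5. The list median was 0.09.

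EGF receptor signalling passes through Ras and a kinase cascade to the nucleus, where the repressor aop is its target, and is limited by the secreted inhibitor aos. Of 14 genes of the pathway 3 rose (21.4%, against 3.06% of all features) and none fell. Beside Egfr, aos gave 2.32, 2.23, 0.68, 1.30 and 1.36 on arrays 1 to 5 (1.54 ± 0.19, adjusted p = 0.000691). The repressor aop was smaller and less even, with 0.60, 0.34, 0.04, 0.86 and 0.57 (0.52 ± 0.10, adjusted p = 0.00918), and did not hold under every pairing or without array 4. The list median was 0.10.

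Of 11 genes of muscle progenitors and founder cells 3 rose (27.3%) and 1 fell (9.09%), against 3.06% and 4.15% over all features. After Him came twi, a mesodermal bHLH factor, at 1.12, 1.41, 0.70, 0.86 and 1.20 (1.06 ± 0.17, adjusted p = 0.00338), which held under every pairing. Of the receptors for muscle fusion, kirre, known from founder cells, rose (0.53 ± 0.11), and sns, known from fusion-competent cells, fell (-0.54 ± 0.10). Neither of these held under every pairing, and the call was lost for kirre without array 1, 2, 4 or 5 and for sns without array 4. In lists that mark other cells no member passed with limma. The 7 wing disc patterning genes lay between -0.30 and 0.30, the 8 blood cell genes between -0.13 and 0.33, and the 4 neural and glial genes between -0.23 and 0.07, and 0, 1 and 1 of them had an unadjusted p under 0.05.

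Single members stood out in other signalling lists. Over all features 3.06% rose and 4.15% fell. These lists are short, so 1 gene is 11.1% of the Hedgehog list and 6.25% of the Dpp and activin list. Shares lower were 20% in the Toll list, 27.3% in the JNK list, 16.7% in the insulin list and 15.4% in the ecdysone list. Shares higher were 40% in the Wingless list and 23.1% in the ecdysone list, and the clock list had 12.5% each way. The Hedgehog receptor ptc, which is also a target of that pathway, gave 0.89, 1.70, 0.90, 1.25 and 0.97 (1.13 ± 0.12, adjusted p = 0.000266) and was the only 1 of 9 Hedgehog genes to pass. The activin-type ligand daw gave -1.53, -1.98, -0.95, -1.85 and -2.33 (-1.79 ± 0.13, adjusted p = 1.34e-05), alone among 16 Dpp and activin genes. Both held under every pairing and without any 1 array. Of 5 tested Wingless and Ryk genes drl and the Wingless inhibitor nkd (0.39 ± 0.09) rose. Of 15 Toll pathway genes 3 fell, the NF-kappaB factor dl (-0.72 ± 0.08), its inhibitor cact (-0.31 ± 0.07) and the receptor Tollo (-0.52 ± 0.13). Of 11 JNK and immediate early genes 3 fell, Gadd45, a stress gene (-0.93 ± 0.13), the Fos gene kay (-0.73 ± 0.12) and the ETS factor Ets21C (-0.52 ± 0.13). Of 13 ecdysone response genes 3 rose, among them Eip63E (0.57 ± 0.09) and Eip93F (0.54 ± 0.13), and 2 fell, Hr3 (-0.43 ± 0.10) and ImpL2, a secreted insulin antagonist (-0.51 ± 0.11). Of 12 insulin and growth genes ImpL2 and scyl fell. The clock list held 1 rise in 8, per (0.46 ± 0.08), and 1 fall, vri (-0.54 ± 0.13). Of the genes with less than 1 in size in this paragraph, dl, Gadd45, Eip63E and scyl held under every pairing. The genes cact and Eip93F lost their calls whichever array was left out, nkd, Ets21C and ImpL2 without array 1, 2, 4 or 5, vri without 2, 3, 4 or 5, Hr3 without 1, 3 or 4, Tollo without 1, 2 or 5, and per and scyl without 4.

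The falls reached as far as the rises and included some genes of sugar transport and metabolism. CG11893 gave -2.90, -2.56, -0.48, -3.01 and -2.42 (-2.35 ± 0.26, adjusted p = 0.000317), with array 3 far above the others. Tret1-1, a transporter of trehalose, the blood sugar of insects, gave -2.20, -2.55, -1.95, -2.03 and -2.18 (-2.17 ± 0.11, adjusted p = 6.43e-07). All 5 arrays lay within 1 unit of each other. Tret1-2 gave -1.87, -1.76, -1.30, -2.89 and -2.37 (-2.13 ± 0.11), with a dye term of 0.49 that also passed (adjusted p = 0.0144). Of 26 genes of sugar uptake and glycolysis 4 fell and 2 rose, with a list median of -0.03. These are 15.4% and 7.69% of the list, against 4.15% lower and 3.06% higher over all features. The neighbouring pair Tret1-1 and Tret1-2 is among the 4 falls. The other falls were Pepck1, an enzyme of gluconeogenesis (-2.42 to -0.83, mean -1.49 ± 0.19), and Hex-A, a hexokinase (-1.55, -0.95, -1.20, -1.0 and -1.04, mean -1.12 ± 0.09). All 4 falls held under every pairing and neither rise did.

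Among the other low genes, Dgp-1 gave -2.21, -2.30, -2.29, -1.61 and -2.05 (-2.05 ± 0.08, adjusted p = 3.63e-07), the lowest adjusted p of any tested feature. The acetylcholine receptor subunit nAChRalpha1 (-1.75 ± 0.11), CG10365 (-1.54 ± 0.10), MME1 (-1.52 ± 0.08), CG4269 (-1.46 ± 0.12) and CG7044 (-1.36 ± 0.13) were negative on all 5 arrays. So were the ABC transporter genes Mrp4 (-1.39 ± 0.10) and Cftr (-1.49 ± 0.07), and Cftr was the most even of the 15 lowest genes, between -1.60 and -1.36. Cytochrome P450 genes encode a family of oxidases that act on lipids, hormones and foreign compounds. Of 58 tested, 6 fell (10.3%, against 4.15% of all features) and none rose, and 4 of the falls held under every pairing. Cyp6a20 gave -1.72, -1.69, -1.25, -2.77 and -2.08 (-1.99 ± 0.11, adjusted p = 1.87e-06). Cyp6a23 was more even, with -1.65, -1.94, -1.80, -1.77 and -1.74 (-1.78 ± 0.08, adjusted p = 5.26e-07). Cyp9c1 (-0.83 ± 0.09) and Cyp6d4 (-0.75 ± 0.09) followed. Of 23 glutathione transferases, which attach glutathione to toxic molecules, 3 fell, GstD1 (-0.87 ± 0.09), GstD3 (-0.73 ± 0.09) and GstD2 (-0.41 ± 0.08), and GstT4 rose (0.44 ± 0.09). In this list 13% were lower and 4.35% higher, against 4.15% and 3.06% over all features. The calls of GstD2 and GstT4 were lost without array 4.

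**Figure D2:**
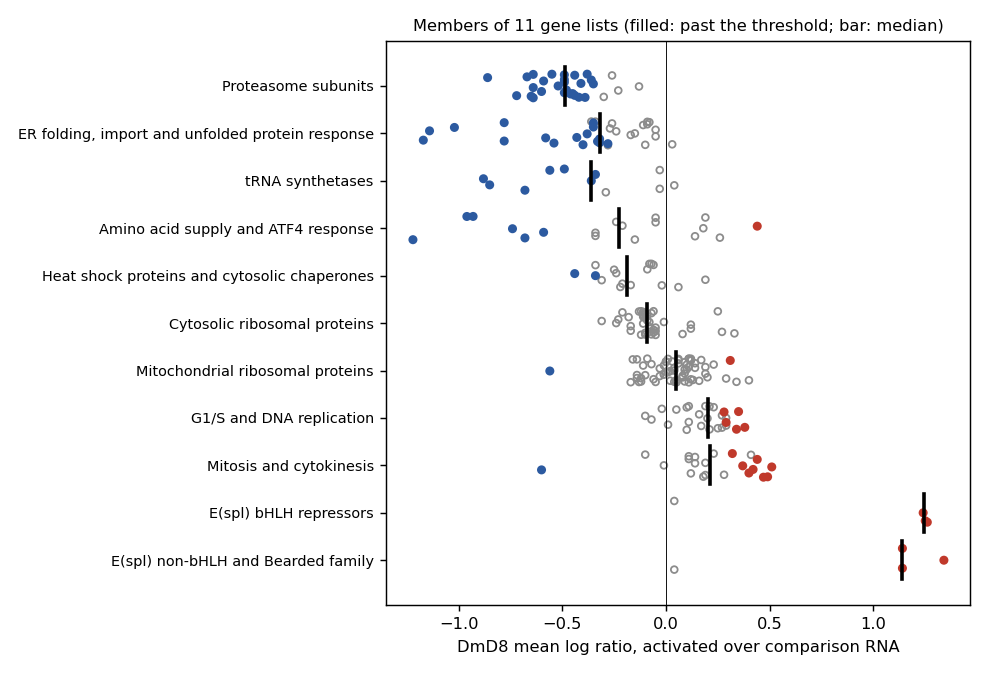
Mean log ratio in DmD8 (horizontal axis) of each tested member of the gene lists named at the left. Filled points passed the threshold (red higher, blue lower), open points did not, and the black bar is the list median; all 30 proteasome members lie below 0, with a median of -0.48, and all but E(spl)mbeta-HLH and Tom lie far above 0 in the E(spl) lists.

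The proteasome is the particle that degrades ubiquitin-tagged proteins. Its core is built of alpha and beta rings, and its cap of Rpt ATPases, which unfold the substrate, and Rpn subunits, which bind and trim it. Of 30 tested subunit genes 26 fell and none rose (86.7%, against 4.15% of all features lower), and all 30 means were below 0, from -0.86 to -0.13. The list median was -0.55, -0.45, -0.39, -0.42 and -0.52 on arrays 1 to 5, where all features stood at -0.12, -0.09, -0.03, 0.01 and 0.00. It was thus lower than the array as a whole by a similar amount in both dye orientations. The falls covered 4 of 5 Rpt genes (median -0.49), 10 of 11 Rpn genes (median -0.64), 7 of 8 alpha ring genes (median -0.42) and 5 of 6 beta ring genes (median -0.42).

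Rpn13, a ubiquitin receptor of the cap, gave -0.76, -0.42, -0.42, -1.63 and -0.77 (-0.86 ± 0.12, adjusted p = 0.00126). Rpn1 gave -1.02, -0.13, -0.16, -1.19 and -0.83 (-0.72 ± 0.15, adjusted p = 0.0117), and did not pass without array 4. Rpn3 gave -0.99, -0.31, -0.63, -0.78 and -0.61 (-0.67 ± 0.11, adjusted p = 0.00289). Rpn8 followed at -0.65 ± 0.10, with a dye term of 0.35 that also passed (adjusted p = 0.0381), and all 4 genes were negative on every array. The 4 members that did not pass, looked up after the values were seen, were Prosalpha7 (-0.26 ± 0.07, adjusted p = 0.0545), Rpt3R (-0.30 ± 0.10, adjusted p = 0.11), Prosbeta2R2 (-0.23 ± 0.21 on 3 arrays, adjusted p = 0.573) and Rpn12R (-0.13 ± 0.09, adjusted p = 0.442). The last 3 carry the names of variant copies of a standard subunit. Of the 26 falls 6 held under every pairing, and 14 where the pairing was fitted with no dye term (3.00% of all features, 1.02% higher and 1.98% lower). The count was 17 without array 4 and between 19 and 24 without any other array. It was 25 with each array centred on its median, 23 with the DmD8 arrays alone and 17 with arrays 1 to 3 only.

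The endoplasmic reticulum folds secreted proteins, and when unfolded ones accumulate the sensors Ire1 and PEK set off the unfolded protein response. Of 32 genes of this list 16 fell and none rose (50%, against 4.15% of all features lower), with a list median of -0.32. Ire1 gave -0.94, -1.29, -1.07, -1.34 and -1.04 (-1.14 ± 0.08, adjusted p = 1.13e-05). Hsc70-3, the main chaperone of the compartment, gave -1.06, -1.06, -0.69, -0.95 and -1.27 (-1.02 ± 0.08, adjusted p = 3.01e-05). Both were well below 0 in either orientation. Sil1, a cofactor of that chaperone, gave -1.05, -0.64, 0.02, -2.11 and -1.45 (-1.17 ± 0.15, adjusted p = 0.000668), far lower on the swaps than on arrays 1 to 3, and its dye term of 0.61 passed as well (adjusted p = 0.0204). PEK fell by 0.78 ± 0.10. Chosen after the values were seen, the degradation factor Herp (-0.78 ± 0.09), the chaperone Gp93 (-0.58 ± 0.12) and the secreted Manf (-0.54 ± 0.09) fell too. The genes of the import channel did not pass, with Sec61alpha at -0.11 ± 0.08, Sec61beta at -0.28 ± 0.09 and Sec61gamma at -0.09 ± 0.08. The list held 5 falls under every pairing, where 1.46% of all testable features were lower. It held 8, 9, 12, 9 and 7 without arrays 1 to 5 in turn. It held 10 with each array centred on its median, 7 with the DmD8 arrays alone and 8 with arrays 1 to 3 only. Gp93 lost its call without array 1 or 4 and Manf without array 5.

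Of 16 heat shock and cytosolic chaperone genes 2 fell (12.5%, against 4.15% of all features). They were Hsc70-5, a mitochondrial chaperone (-0.44 ± 0.09), and DnaJ-1 (-0.34 ± 0.09), and neither held under every pairing. Hsc70-5 gave -0.13, 0.02, 0.35, -1.15 and -0.76, so that it was low on the swaps alone, and its dye term of 0.52 passed (adjusted p = 0.00785). DnaJ-1 lost its call whichever array was left out, and Hsc70-5 without array 1 or 4. The 39 cytosolic ribosomal protein genes lay between -0.31 and 0.33 with none past the threshold in limma and 5 with an unadjusted p under 0.05.

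Aminoacyl-tRNA synthetases load amino acids onto tRNAs, and their genes are known targets of ATF4, the factor induced when amino acids are short. Of 11 tested synthetase genes 7 fell and none rose (63.6%), with a list median of -0.36. LeuRS gave -1.04, -0.20, -0.29, -1.51 and -1.0 (-0.88 ± 0.14, adjusted p = 0.00335). ValRS gave -1.18, -0.73, -0.22, -1.11 and -0.87 (-0.85 ± 0.13, adjusted p = 0.00209). IleRS (-0.68 ± 0.11) and TrpRS (-0.56 ± 0.11) followed. All 4 were negative on every array, and array 3 was near the upper end in each. Among 18 genes of amino acid supply and the ATF4 response 6 fell (33.3%), each under every pairing, and 1 rose (5.56%). Over all features 4.15% fell and 3.06% rose. JhI-21, an amino acid transporter, gave -1.66, -1.22, -0.88, -1.17 and -1.23 (-1.22 ± 0.11, adjusted p = 6.21e-05). The growth inhibitor scyl (-0.96 ± 0.16), Gadd45 and the pseudokinase trbl (-0.74 ± 0.07) fell as well. The synthetase count was 6, 5, 8, 2 and 3 without arrays 1 to 5 in turn and 3 under every pairing. It was 6 with each array centred on its median, 4 with the DmD8 arrays alone and 3 with arrays 1 to 3 only. LeuRS, TrpRS and scyl lost their calls without array 4, and TrpRS also without array 5.

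Cell cycle genes leaned the other way with small ratios. Of 26 genes of G1/S control and DNA replication 5 rose (19.2%, against 3.06% of all features) and none fell, with a list median of 0.20. The kinase Cdk4 ran from 0.07 to 0.64 (0.38 ± 0.10), the cyclin CycE from 0.05 to 0.85 (0.35 ± 0.08), and the replication helicase subunits Mcm5 (0.34 ± 0.07) and Mcm2 (0.29 ± 0.07) were positive on all 5 arrays. Of 22 genes of mitosis and cytokinesis 8 rose (36.4%) and 1 fell (4.55%, near the 4.15% of all features), with a list median of 0.21. The cytokinesis genes tum (0.51 ± 0.08) and scra (0.47 ± 0.08) and the spindle kinesin Klp61F (0.49 ± 0.12) rose, and the condensin subunit barr fell (-0.60 ± 0.10). The mitosis list had a median of 0.02 over arrays 1 to 3 and 0.40 over the swaps, and the dye term passed in 7 of its members, whose part in the result was not tested. No rise of either list held under every pairing. With 1 array left out, 0 to 4 G1/S genes rose, against 5 with all arrays (0 without array 1, 2 or 5). In the mitosis list it was 3 to 7 genes, against 8 (3 without array 4 or 5). Cdk4 and Mcm2 lost their calls whichever array was left out, CycE, Mcm5 and Klp61F without array 1, 2, 4 or 5, and barr without array 5.

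Remaining lists held few calls. The integrin list had 14.8% higher, the lysosome list 15.8% lower and the lipid list 8.7% lower. Over all features 3.06% rose and 4.15% fell. The V-ATPase list, at 4.76% higher, was near that share, and the mitochondrial ribosomal list, at 1.49% each way, was below it. In the integrin, cadherin and matrix list 4 of 27 rose, Reck, the integrin subunits mew (0.72 ± 0.08) and scb (0.38 ± 0.09) and the cadherin shg (0.50 ± 0.09), and 1 fell. In the lysosome and autophagy list 3 of 19 fell, led by ref(2)P, the adaptor that carries ubiquitin-tagged cargo to autophagosomes, at -1.67, -1.51, -1.09, -0.80 and -1.12 (-1.19 ± 0.10, adjusted p = 3.01e-05), ahead of Npc1a (-0.43 ± 0.09 on 4 arrays) and Ctns (-0.42 ± 0.09). In the lipid list 2 of 23 fell, LpR2, a lipoprotein receptor (-0.65 ± 0.10), and Npc1a, a cholesterol transporter, and ACC, which starts fatty acid synthesis, rose (0.41 ± 0.11). Of 67 mitochondrial ribosomal protein genes mRpL9 rose (0.31 ± 0.08) and mRpL28 fell (-0.56 ± 0.10), and of 21 V-ATPase genes Vha100-2 rose (0.40 ± 0.07). Only mew, Reck, ref(2)P and LpR2 of this paragraph held under every pairing. Npc1a was testable under 2 of the 6 pairings and passed in 0 of them. The call of mRpL9 was lost whichever array was left out, those of scb without array 1, 3 or 4, Ctns without 1, 2 or 4, ACC without 2, 3 or 4, Npc1a without 2, 4 or 5, Vha100-2 without 4, and shg and mRpL28 without 5. In 7 lists no member passed with limma, those of the wing disc, blood, neural, metallothionein, cell death, JAK/STAT and cytosolic ribosomal genes, and an unadjusted p under 0.05 was found for 12 of the 88 genes.

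**Figure D3:**
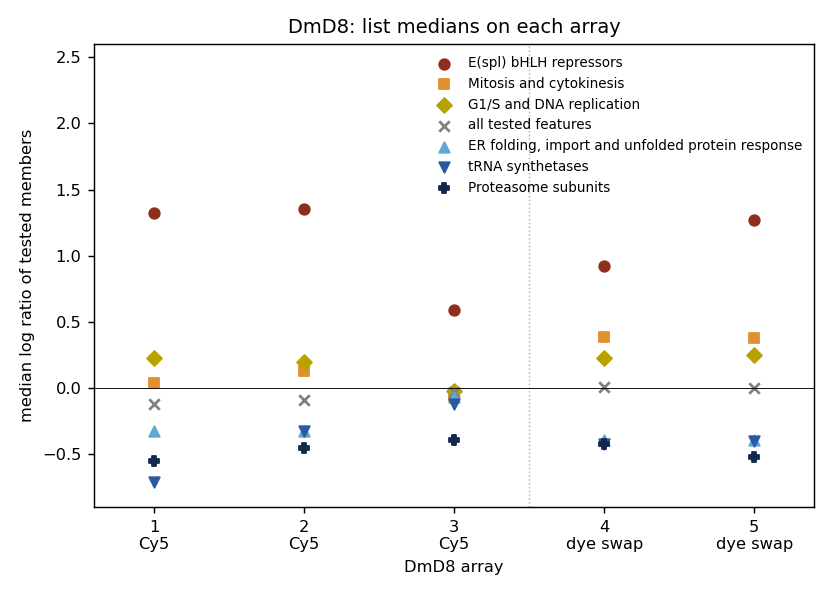
Median log ratio of the tested members of each list (vertical axis) on the 5 DmD8 arrays (horizontal axis), with the median of all tested features as grey crosses; the dotted line parts arrays 1 to 3 from the dye swaps. Proteasome medians lie between -0.55 and -0.39 on each array, and array 3 gives the smallest ratio for the E(spl) bHLH, endoplasmic reticulum and synthetase lists.

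The arrays differed in the size of what they showed. The median ratio of the called features, taken in the direction of the call, was 0.48, 0.46, 0.28, 0.63 and 0.55 on arrays 1 to 5. Of 906 called features with 5 values, array 3 was the smallest in 420. It bore the sign of the call in 82.4%, beside 91.5% to 98.7% on the other arrays. Without it 839 features passed.

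**Figure D4:**
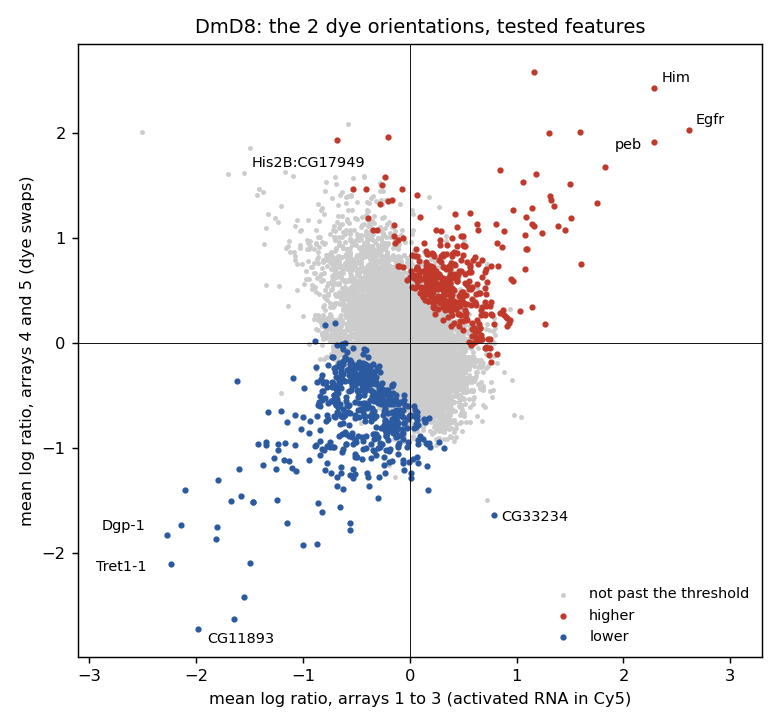
Mean log ratio over arrays 1 to 3 (activated RNA in Cy5, horizontal axis) against the mean over the dye swaps 4 and 5 (vertical axis) for each tested feature. Red features were higher, blue ones lower and grey ones not past the threshold; Him, Egfr and peb are high and Tret1-1, Dgp-1 and CG11893 low in both orientations, while His2B:CG17949 and CG33234 change sign with the dye.

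A dye term, the part of a ratio that changes sign with the orientation, passed the threshold for 2195 features (17.0%), more than the mean did. It also passed in 202 of the 931 called features, and 860 of the 931 had a mean larger in size than their dye term. Among the named genes both passed in Cyp6a20, CG4269, Mrp4, nAChRalpha1, Vha100-2, CG18135 and CG33234 besides those given above. Vha100-2 had a mean of 0.07 on arrays 1 to 3 and 0.72 on the swaps, and CG33234 one of 0.79 and -1.64. One sign was seen on every array with a value in 683 of the 931. Among all 10747 tested features with 5 values 1394 bore one sign on 5 of 5 arrays (13.0%), 536 positive (4.99%) and 858 negative (7.98%).

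The response of DmD8 was set against that of Kc in the same fit. The mean log ratio differed between the lines for 1407 features (10.9%), with 568 higher (4.40%) and 839 lower (6.50%) in DmD8. The count was 809 without array 4, 674 with replicate number as a block, 331 under every pairing (3.16%) and 199 with arrays 1 to 3 only. The comparison RNA of the lines may differ in kind, since that of Kc came from control cells. Among the genes described above, Him differed most in the upward direction, by 2.41 ± 0.41 (adjusted p = 0.00623), with -0.05 ± 0.30 in Kc. Egfr differed by 2.10 ± 0.20 (adjusted p = 0.00013) and CG14275 by 2.05 ± 0.24 (adjusted p = 0.0005), with 0.22 ± 0.14 and -0.30 ± 0.17 in Kc. CG42807 and CG18135 came next, with 1.87 ± 0.31 and 0.83 ± 0.12 in DmD8. The calls in CG42807 rest on uneven arrays, since it gave 2.74, 1.09, -0.34, 2.49 and 2.67.

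**Figure D5:**
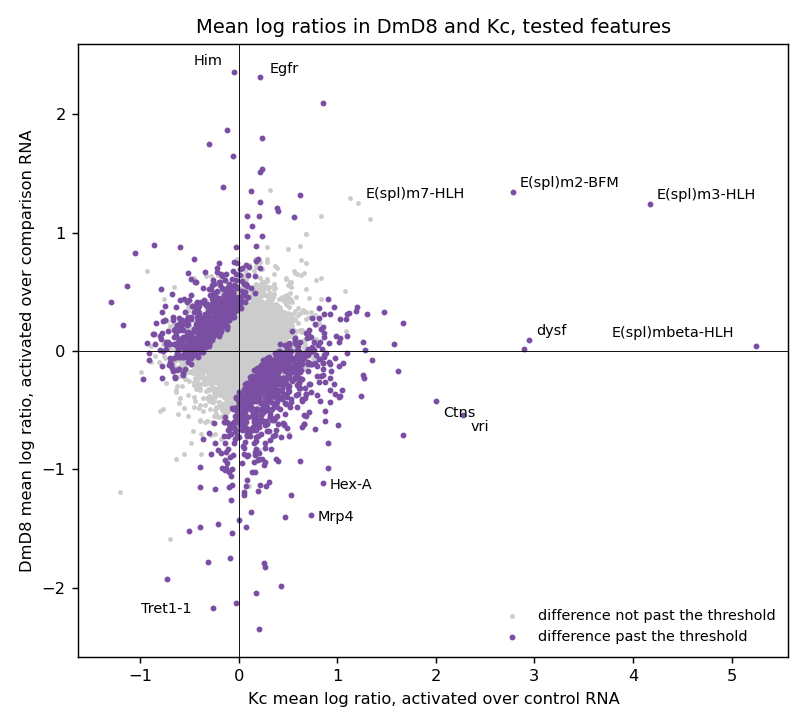
Mean log ratio in Kc (activated over control RNA, horizontal axis) against that in DmD8 (activated over comparison RNA, vertical axis) for each tested feature. Purple features differ between the lines past the threshold; Him and Egfr lie high in DmD8 near 0 in Kc, E(spl)mbeta-HLH and dysf lie far to the right near 0 in DmD8, and E(spl)m7-HLH is among the grey features.

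In the other direction E(spl)mbeta-HLH differed by -5.21 ± 0.35 (adjusted p = 7.28e-06), with 0.04 in DmD8 and 5.25 in Kc. E(spl)m3-HLH rose in both lines but by 2.93 ± 0.18 less in DmD8 (-2.93 on the scale of the difference, adjusted p = 4.72e-06). For E(spl)m7-HLH the difference was 0.04 ± 0.21 (adjusted p = 0.918), and E(spl)mdelta-HLH was higher in DmD8 by 1.05 ± 0.18 (adjusted p = 0.00391). The members of the complex thus differed between the lines in both directions. CG14606 (0.02 ± 0.16 in DmD8, difference -2.87) and dysf, a bHLH-PAS factor (0.09 ± 0.13, difference -2.86), had means near 0 in DmD8, whereas vri fell there (difference -2.82). The mean of dysf balances -0.92, -0.35 and -0.84 on arrays 1 to 3 against 0.76 and 1.0 on the swaps, and its dye term of -0.79 passed (adjusted p = 0.00551).

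Lists with falls in DmD8 differed in what they did in Kc. By the test of the difference 6.50% of all features were lower in DmD8. Of the 30 proteasome genes 22 were lower in DmD8 by that test. None of them passed in either direction in Kc with limma, where the list median was 0.02. Of the 32 endoplasmic reticulum genes none passed in Kc, with a median of -0.01, and 13 were lower in DmD8. Of 11 synthetases 1 fell in Kc and 5 were lower in DmD8. In other lists Kc had calls of its own, mostly rises: 5 higher and 2 lower among the 18 amino acid supply genes, 8 and 1 among the 58 cytochrome P450 genes, 5 and 2 in the Toll list, 4 and 1 in the JNK list, and 5 higher and none lower among the 26 sugar genes. Among sugar genes Hex-A fell in DmD8 and rose in Kc (0.85 ± 0.08), a difference of -1.98 ± 0.13 (adjusted p = 5.76e-06), and Mrp4 did the same, with 0.73 ± 0.09 in Kc and a difference of -2.12 ± 0.14. Of the 931 features called in DmD8, 584 also differed from Kc. In Kc 1523 features passed (11.8%), 903 higher (6.99%) and 620 lower (4.80%). The 75 that were higher in both lines made up 19.0% of the 395 higher in DmD8 and 8.31% of those higher in Kc. The 45 that were lower in both made up 8.40% of the 536 lower in DmD8 and 7.26% of those lower in Kc. A further 29 were higher in DmD8 and lower in Kc, 7.34% of those higher in DmD8 and 4.68% of those lower in Kc. The reverse was seen in 80, 14.9% of those lower in DmD8 and 8.86% of those higher in Kc. Across features the means of the 2 lines correlated at -0.00467 and their dye terms at 0.746.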

How the data were processed

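The authors deposited 1 log ratio per probe and array, taken here as log2 from the range of the values. Nothing settles this against a natural log, and no folds are given. Per the labels, spots were read with a GenePix scanner and quantified with Dapple. The handling of background, normalization and weak spots, the log base and the direction were not given in the sources used here. Channel intensities were not analysed here. The number of arrays limits the precision.

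Of 17258 probes 12658 had 1 gene symbol in the platform annotation, 96 had several and 4504 had none. Of those with 1, 12012 matched the RefSeq gene table (Release 6) by gene ID and 107 by accession, and 539 kept the platform name. Probes of 1 gene were averaged (500 genes). Tested features had at least 3 values and both dye orientations in each experiment. The model, fitted in limma 3.58.1 (R 4.3.3), covered the 11 distinct arrays. Each experiment had its own mean and dye coefficient, and Benjamini-Hochberg adjustment ran over all features. The DmD8 swaps were averaged with replicates under 6 pairings, keeping the dye term, so that the mean then comes from the 2 averages. The Kc pairing was the same in each, and it enters the spread and the difference between the lines. The procedure was also run on simulated ratios whose noise was drawn separately for each array. Those arrays share no RNA, so the simulation cannot show how far the p-values are too small. Figures used matplotlib 3.10.9.

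The named genes were the 15 highest and 15 lowest means past the threshold with one sign on 5 of 5 arrays, all E(spl) and Bearded genes, the 4 largest past the threshold in each other list, the 3 highest and 3 lowest dye terms and the 5 highest and 5 lowest differences from Kc. The members, lists and tests were chosen with earlier results of these data known. Promoter and protein motifs were planned and not run, since no sequences were used here.

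Whether replicate numbers pair DmD8 and Kc arrays was checked: deviations of same-numbered arrays correlated at -0.30, -0.32, 0.20, -0.13 and -0.09, so the numbers were not taken as pairs.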

Additional observations from a re-analysis of the deposited data

Results flagged for a closer look

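In 6 of 119 named genes with 4 or 5 DmD8 values, 1 array stood far from the others. The rule flags about 1 in 20 where values are drawn alike. These genes were picked partly by these values and the arrays mix dye orientations, so the number cannot be judged against that rate. Array 3 was apart in drl (0.71), CG11893 (-0.48) and CG7044 (-0.60), in each case nearer to 0 than the others. Array 4 was apart in DnaJ-1 (-0.63) and Rpn13 (-1.63), in each case lower than the others, and in CG14674 (-0.70), where it was the only dye swap with a value.

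The response differed between DmD8 and Kc for 1407 features by the test of the difference in limma, among them 89 of the 117 named genes tested. Each value below is the DmD8 mean log ratio minus that of Kc. It was above 0 for Mcm2 (0.34), HDAC4 (0.82), Cdk4 (0.51), GstT4 (0.48), CG18135 (1.88), CG14275 (2.05), Mcm5 (0.40), CG42807 (1.99), mRpL9 (0.45), scra (0.43), Delta (0.81), peb (1.24), ptc (0.57), E(spl)mdelta-HLH (1.05), Cph (1.28), twi (0.93), Reck (1.23), sgl (0.71), drl (1.56), E(spl)m6-BFM (0.93), Him (2.41), tum (0.61), CBP (1.56), Egfr (2.10), aos (1.30). It was below 0 for Cyp6a20 (-2.42), Tret1-1 (-1.91), DnaJ-1 (-0.58), Dgp-1 (-2.22), JhI-21 (-1.28), nAChRalpha1 (-1.66), Cyp9c1 (-1.01), GstD1 (-0.93), MME1 (-1.02), Ire1 (-1.22), Pepck1 (-1.10), Sil1 (-0.93), Rpn1 (-0.92), Tret1-2 (-2.10), GstD2 (-0.72), ImpL2 (-0.82), LpR2 (-1.14), Hsc70-3 (-1.18), Rpn13 (-1.07), Cyp6a23 (-1.46), CG11893 (-2.56), Gp93 (-0.57), GstD3 (-0.91), Rpn3 (-0.70), Hr3 (-0.50), CG33234 (-0.76), CG7044 (-1.49), CG12594 (-0.77), Cyp6d4 (-1.07), Mrp4 (-2.12), Hsc70-5 (-0.50), Gadd45 (-1.54), CG10365 (-1.47), CG14606 (-2.87), mRpL28 (-0.54), Rpn8 (-0.72), CG4269 (-1.24), Hex-A (-1.98), Npc1a (-0.48), Ets21C (-0.77), Manf (-0.51), dysf (-2.86), E(spl)m3-HLH (-2.93), E(spl)mbeta-HLH (-5.21), vri (-2.82), PEK (-1.06), trbl (-0.38), dl (-1.06), scyl (-1.21), E(spl)m2-BFM (-1.44), Tollo (-1.23), ref(2)P (-1.24), Herp (-0.73), barr (-0.66), Cftr (-1.55), sns (-0.68), Ctns (-2.41), IleRS (-0.97), ValRS (-1.01), TrpRS (-0.53), LeuRS (-1.04), cact (-0.93), daw (-2.05), kay (-1.15).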

How the results depend on the processing

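The main fit called 931 features in DmD8. Counts under other settings are totals of their own, not parts of the 931. The count was 921 with each array centred on its median and 999 with arrays 1 to 3 only, a fit with no dye term. It was 1007 with features measured on all arrays, 882 with a looser filter and 989 with each probe on its own. It was 559 (235 higher, 324 lower) with the DmD8 arrays alone, 2195 (980 and 1215) with the swaps turned, which exchanges the mean and the dye term, and 230 (77 and 153) under every pairing. Every pairing with no dye term, chosen after seeing the data, gave 314 (107 and 207). Leaving out 1 array in turn gave 418 to 839 features, 160 to 333 higher and 258 to 506 lower. The difference from Kc gave 0 features with the swaps turned in limma (743 with an unadjusted p under 0.05), 199 with arrays 1 to 3 only, 331 under every pairing, 282 with no dye term, and 809 to 1132 without 1 array. With replicate number as a replicate block it gave 674. No paired analysis was possible because each DmD8 ratio already sets both RNAs on 1 array, so the mean itself has no pairs left. The dye term passed in 2318 features after centring and 1622 with the DmD8 arrays alone. Of 101 named genes called, 97 kept their call after centring, 85 with the DmD8 arrays alone, and 80, 81, 90, 67 and 78 without arrays 1 to 5. With arrays 1 to 3 only, 67 of 94 did. The causes were not tested. Channel intensities were not analysed here, so which ratios are limited by dim spots is not known.

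Some values took the opposite sign. With the swaps turned these were Vha100-2 (-0.32), ValRS (0.14), tum (-0.20), Tret1-2 (0.49), trbl (0.22), Tom (-0.33), Tollo (0.17), sns (0.09), Sil1 (0.61), sev (-1.33), Sec61beta (0.35), scyl (0.19), scra (-0.14), Rpt3R (0.37), Rpn8 (0.35), Rpn3 (0.03), Rpn13 (0.33), Rpn1 (0.29), per (-0.04), Pepck1 (0.02), PEK (0.18), Npc1a (0.13), nkd (-0.13), Mrp4 (0.52), mew (-0.21), Mcm2 (-0.12), LeuRS (0.37), kirre (-0.24), Ire1 (0.04), IleRS (0.24), Hsc70-5 (0.52), Hsc70-3 (0.08), Hr3 (0.29), His2B:CG17949 (-1.59), Him (-0.07), Herp (0.18), HDAC4 (-0.07), GstT4 (-0.14), GstD3 (0.14), GstD2 (0.00), Gp93 (0.16), Eip93F (-0.41), Eip63E (-0.26), E(spl)mbeta-HLH (-0.13), E(spl)malpha-BFM (-0.05), E(spl)m3-HLH (-0.41), E(spl)m2-BFM (-0.02), dysf (-0.79), drl (-0.21), DnaJ-1 (0.12), dl (0.17), Delta (-0.02), daw (0.30), Cyp9c1 (0.20), Cyp6d4 (0.12), Cyp6a20 (0.44), Cph (-0.00), CG7044 (0.13), CG42807 (-0.71), CG4269 (0.46), CG33234 (1.22), CG18135 (-0.40), CG14606 (-0.24), CG12594 (1.10), CG11893 (0.37), Cftr (0.02), CBP (-0.21), aop (-0.20), ACC (-0.24), 5SrRNA-Psi:CR33363 (-1.68). With arrays 1 to 3 only they were sev (-0.58), Sec61beta (0.07), Rpt3R (0.06), Hsc70-5 (0.08), His2B:CG17949 (-1.55), E(spl)mbeta-HLH (-0.09), dysf (-0.70), CG33234 (0.79), CG14606 (-0.22), CG12594 (0.72), 5SrRNA-Psi:CR33363 (-1.49). They were E(spl)mbeta-HLH (-0.02), CG14606 (-0.04) without array 1, Tom (-0.11) without array 2, His2B:CG17949 (-0.08) without array 3 and His2B:CG17949 (-0.06), E(spl)mbeta-HLH (-0.02), CG14606 (-0.09) without array 4. Under every pairing they were E(spl)mbeta-HLH (-0.02), CG14606 (-0.04), and with no dye term His2B:CG17949 (-0.54), E(spl)mbeta-HLH (-0.02), dysf (-0.11), CG33234 (0.01), CG14606 (-0.02), CG12594 (0.01), 5SrRNA-Psi:CR33363 (-0.43).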

Other observations

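Among the genes whose ratio changed sign with the dye, CG33234 gave 0.95, 0.46 and 0.96 on arrays 1 to 3 and -1.78 and -1.51 on the swaps, with a dye term of 1.22 ± 0.12 (adjusted p = 0.000423). CG12594 had a dye term of 1.10 ± 0.11, and CG14674 one of 0.87 ± 0.10 that rests on 1 swap value (-0.70). In the opposite sense stood 5SrRNA-Psi:CR33363, a 5S rRNA pseudogene (-1.68 ± 0.11), the histone gene His2B:CG17949 (-1.59 ± 0.16) and sev, a receptor tyrosine kinase gene (-1.33 ± 0.33, resting on 1 swap value, 2.08). His2B:CG17949 gave -1.79, -1.78 and -1.10 on arrays 1 to 3 and 1.81 and 1.43 on the swaps, with a mean of 0.03 ± 0.16.

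Of 330 genes with more than 1 tested probe, 39 were called, and every probe passed in 19 of them. The probes had opposite signs in 2, chosen after their values were seen: CRMP, where they ran from -0.07 to 0.67, and ImpL2, where they ran from -0.92 to 0.16.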
